A study of Mus musculus with 8 samples.

Results

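Expression of 10 subunits of the mammalian SWI/SNF complex, also called BAF, was followed in long-read RNA libraries of differentiating mouse embryonic stem cells (ESCs). They were taken by gene symbol, and all 10 were found among the 24421 genes of the deposited count files: Smarca4, Smarca2, Smarcc1, Smarcc2, Smarcd1, Smarcd3, Smarcb1, Arid1a, Arid1b and Actl6a. All 10 reached a mean of at least 5 normalised reads on each platform over both states. Smarca2 and Smarcd3 did so through the Day4 libraries alone, with Undiff means of 0 and 4.95 normalised reads in Direct RNA and 0.933 and 1.70 in cDNA. BAF complexes use the energy of ATP to slide or evict nucleosomes, and so open enhancers and promoters to transcription factors. Each complex holds 1 of 2 alternative ATPases and, at several other positions, 1 of a set of paralogs, so that its make-up can differ between cell types. In ESCs the known form is built around the ATPase BRG1 (Smarca4) and the scaffold BAF155 (Smarcc1), and exchange of subunits in later lineages, above all neurons, is well described.

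The samples were R1 mouse ESCs, an established line, in 2 states. Per the study's methods, Undiff cells were kept in growth medium with leukaemia inhibitory factor (LIF), which holds ESCs pluripotent. Day4 cells had been grown without LIF as embryoid bodies for 4 days and then for 4 days with retinoic acid (RA), an inducer of differentiation. The states therefore differ in LIF, in growth as embryoid bodies and in time as well as in RA, and these cannot be told apart. Every label gives embryoid bodies as the tissue, also for Undiff, and the dose of RA is micromolar in the methods and millimolar in a label. Polyadenylated RNA was sequenced on Oxford Nanopore flow cells with the Direct RNA kit, which reads the RNA strand itself, and with the cDNA-PCR kit, which reads amplified copies. Each state had 2 biological replicates, grown and treated separately, and the study describes using their RNA with both kits, so that the 8 libraries come from 4 cultures. The platforms are thus repeat measurements of the same cultures and not independent evidence of a difference between states. The line is a single genetic background, and embryoid bodies are a mixture of cells, so that in these bulk samples a change in the share of a cell type and a change in RNA per cell cannot be told apart.

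The Direct RNA libraries held 283461 to 907489 reads on genes, and the cDNA libraries 948657 to 2088592. Levels are given in CPM, reads per 1000000 reads on genes, and 3 reads, taken as the smallest detectable level, came to between 1.44 and 10.6 CPM. The 10 subunits together took between 754 and 1362 CPM in the 8 libraries. The markers of the states followed the labels, with calls by DESeq2 under the thresholds given below unless edgeR is named. Not every listed marker reached the mean of 5 normalised reads that a call asks for. In Direct RNA 9 mesoderm and fibroblast, 5 endoderm, 4 neural and 6 endothelial markers did. In cDNA these were 10, 6, 6 and 4. Col1a2, Col3a1, Gata6, Afp, Ttr and Emcn had 0 Undiff reads on both platforms, and Pdgfra and Tie1 in Direct RNA. There they reached that mean through the Day4 libraries alone. All 10 pluripotency markers (Pou5f1, Nanog, Sox2, Zfp42, Esrrb, Klf4, Tdgf1, Dppa5a, Fgf4 and Utf1) fell on both platforms. Their summed level was 11700 to 14000 CPM in Undiff and 123 to 550 CPM in Day4 with Direct RNA, and 21600 to 24700 and 86.5 to 951 CPM with cDNA. Of 10 mesoderm and fibroblast markers, 8 rose on both platforms (Col1a1, Col1a2, Col3a1, Pdgfra, Twist1, Vim, Acta2 and Dlk1), with sums of 247 to 253 and 5730 to 8360 CPM in Direct RNA and 56.9 to 102 and 1040 to 1220 CPM in cDNA. The other two were below 0 on both, Tagln at -1.19 and -2.02 and Thy1 at -1.18 and -2.85 on the log2 scale, and edgeR called Tagln lower on both platforms and Thy1 lower in cDNA. Of 10 endoderm markers, Gata4, Gata6, Dab2 and Ttr rose on both platforms and Afp in Direct RNA, with sums of 17.2 to 28.7 and 685 to 1060 CPM in Direct RNA and 5.27 to 14.4 and 209 to 252 CPM in cDNA. Amn of that list was at -2.32 and -2.41, the latter called lower by edgeR. The edgeR test also called Sox17 higher in Direct RNA and Afp higher in cDNA. Of 10 neural markers Ncam1 rose on both platforms by DESeq2, while Tubb3 and Stmn2 fell on both and Mapt fell in cDNA. The progenitor marker Nes was called higher on both by edgeR (log2 fold changes 2.12 and 2.47) and by DESeq2 on neither. The neural sum was 649 to 662 CPM in Undiff and 129 to 183 CPM in Day4 with Direct RNA, and 648 to 838 and 645 to 659 CPM with cDNA. That cDNA sum mixes opposite changes of its most abundant genes, Ncam1 at 4.74 and Stmn2 at -5.22 on the log2 scale. The defining neural markers Dcx, Sox1 and Elavl3 were each at 0 in some groups. Of 8 endothelial markers, Emcn rose on both platforms, Kdr and Tie1 rose in Direct RNA, and Plvap fell in cDNA, where DESeq2 gave -2.33 (adjusted p = 0.0163) against 1.67 (adjusted p = 0.056) in Direct RNA and an interaction called at an adjusted p of 0.0386. The edgeR test also called Pecam1 lower and Plvap higher (1.76, adjusted p = 0.000627) in Direct RNA, and Kdr higher in cDNA. The 8 had sums of 119 to 204 and 250 to 316 CPM in Direct RNA and 59 to 70.4 and 83.4 to 101 CPM in cDNA. These marker shifts move with every difference between states given below, and their part in the results was not tested.

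Between Undiff and Day4, Smarca2 (the ATPase BRM) went from at most 1 read to at least 13 reads a library on both platforms, and Actl6a (the actin-related subunit BAF53a) fell on both. Smarcd3 (BAF60c) rose in Direct RNA. A gene was called with a DESeq2 adjusted p-value of 0.05 or less over all genes, a log2 fold change of 1 or more in either direction and 5 or more normalised reads on average, the thresholds of the study's methods. Log2 fold changes are Day4 over Undiff and shrunken towards 0. By this rule 2 of the 10 subunits were called higher in Direct RNA, where 9.54% of all genes with that mean were, and 1 was called lower, against 7.67%. In cDNA 1 was called higher, against 8.69%, and 1 lower, against 9.24%. The median log2 fold change of the subunits was 0.43 in Direct RNA and 0.53 in cDNA, beside 0.03 and 0.00 over all genes with that mean. The quasi-likelihood test of edgeR called more on both platforms. It called 4 subunits higher in Direct RNA (18.7% of all genes) and 2 lower (15.1%), and 3 higher in cDNA (17.1%) and 1 lower (15.5%).

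**Figure D1:**
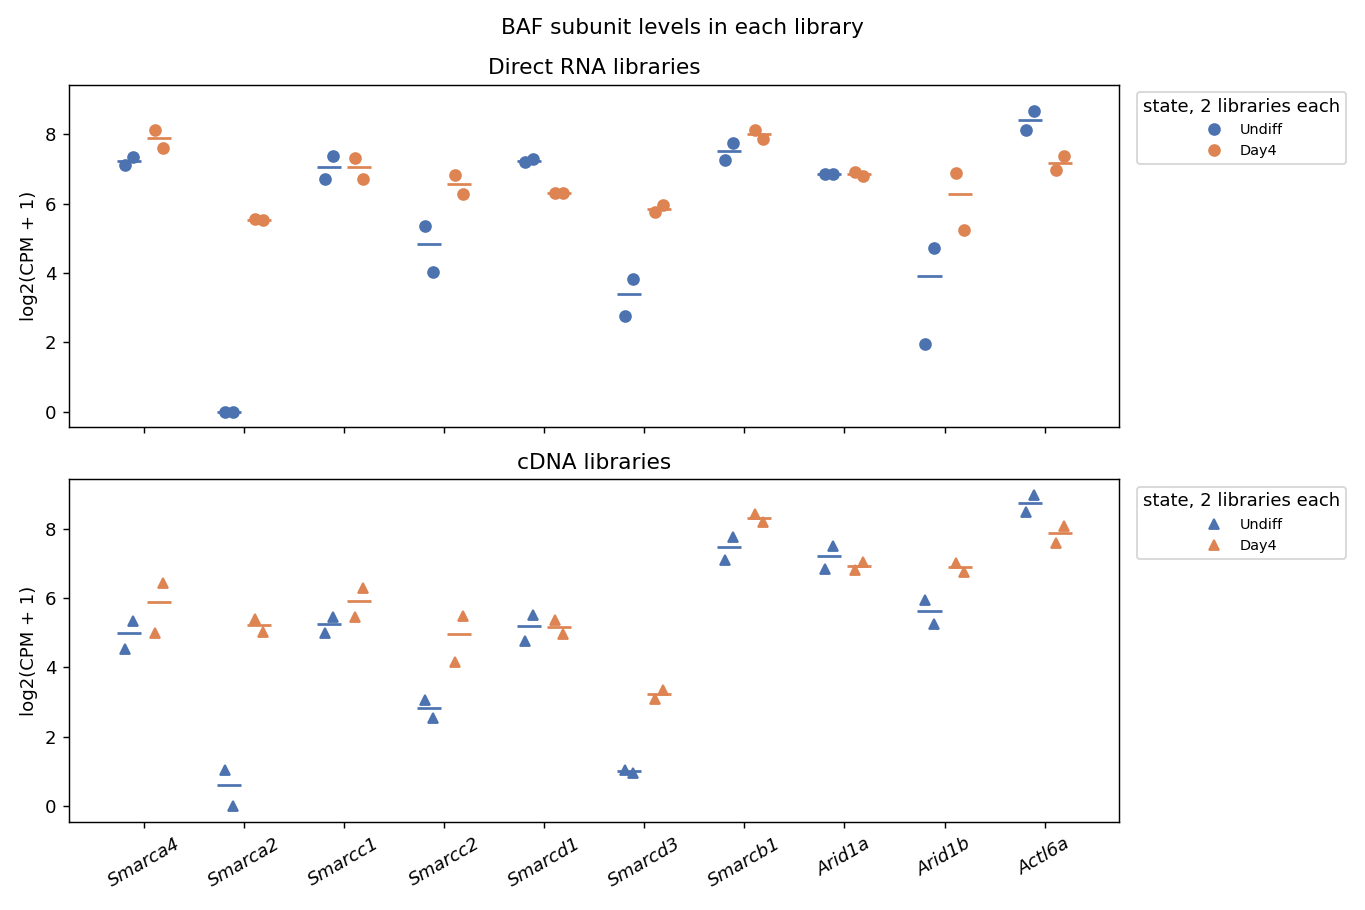
Level of each of the 10 subunits, as log2(CPM + 1), in the Direct RNA libraries (top, circles) and the cDNA libraries (bottom, triangles). Points are libraries, 2 for each state, Undiff in blue and Day4 in orange, and lines mark the mean CPM of a state. Smarca2 is at or near 0 in all 4 Undiff libraries and between 31.8 and 45.9 CPM in all 4 Day4 libraries.

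The ATPases are the motors of the complex, and the pair is shown first. Smarca2 lies at chr19:26605050-26778322 and Smarca4 at chr9:21616169-21704230, both on the plus strand of GRCm38, the assembly that mm10 names. The windows from 250 bases before to 50 bases after a start of each gene (RefSeq, GRCm38.p6) are printed because Smarca2 had the largest log2 fold change of the 10 subunits on both platforms and Smarca4 is its alternative. They cover chr19:26604910-26605209 for Smarca2 and chr9:21615919-21616218 for Smarca4, are written 5′ to 3′ on the plus strand, and have every CG in capitals.
Smarca2 promoter: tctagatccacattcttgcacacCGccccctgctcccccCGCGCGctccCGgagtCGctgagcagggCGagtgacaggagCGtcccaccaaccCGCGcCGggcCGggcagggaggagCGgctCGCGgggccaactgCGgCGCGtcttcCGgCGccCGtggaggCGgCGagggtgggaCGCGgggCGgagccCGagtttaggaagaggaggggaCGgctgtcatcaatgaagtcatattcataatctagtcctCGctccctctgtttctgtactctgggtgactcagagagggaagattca
Smarca4 promoter: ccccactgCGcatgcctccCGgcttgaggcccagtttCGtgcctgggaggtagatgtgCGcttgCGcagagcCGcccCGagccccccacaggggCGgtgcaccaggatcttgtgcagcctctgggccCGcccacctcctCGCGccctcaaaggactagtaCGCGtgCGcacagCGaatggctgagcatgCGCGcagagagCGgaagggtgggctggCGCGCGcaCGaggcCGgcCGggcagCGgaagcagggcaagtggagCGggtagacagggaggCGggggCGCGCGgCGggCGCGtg
The Smarca2 window holds 29 CG dinucleotides and the Smarca4 window 33, where the median of 32851 promoter windows is 7. All 10 subunits have a window in the table, Arid1a has 2, and the 11 windows hold between 21 and 48 CG, at or above the upper quartile of 20. The half-sites AGGTCA and AGTTCA, letters found in elements bound by RA receptors, were searched on both strands. Neither was found in any of the 11 windows, whereas 16.3% and 14% of all promoter windows hold them and 27.7% hold either. This describes the letters in these windows only.

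Smarca2 had 0 reads in both Undiff libraries of Direct RNA and 13 and 33 reads in the Day4 libraries, which came to 45.9 and 44.7 CPM. In cDNA it had 1 and 0 reads in Undiff and 54 and 66 reads in Day4, which came to 41.0 and 31.8 CPM. Every Day4 library was thus above every Undiff library. Over the pooled reads of a group, the Day4 level in Direct RNA was at least 18.9-fold higher, taking 3 reads over the Undiff group as the floor. In cDNA the pooled ratio was 107 (95% exact counting interval 18.9 to 4275), with only 1 read in the Undiff group. Smarca2 was called higher on both platforms, at 5.23 ± 1.21 (log2 fold change ± SE, DESeq2 adjusted p = 0.000392) with Direct RNA and at 5.25 ± 1.07 (adjusted p = 3.36e-05) with cDNA. The cDNA call held when each library was left out in turn, with log2 fold changes of 3.79 without Undiff replicate 2, 4.19 without Day4 replicate 1, 5.02 without Day4 replicate 2 and 5.79 without Undiff replicate 1. The Direct RNA call was lost without Undiff replicate 2 (log2 fold change 3.94) and without Day4 replicate 2 (4.41). Thinning cut the libraries of both kits to 283461 reads on genes, the size of the smallest of all 8, a Direct RNA library. At that depth the cDNA call was lost in all 5 draws, and only 7 to 9 of the 10 subunits still reached the mean of 5 in cDNA. A filter that asks for 10 reads in every library removes the gene.

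Smarca4 had 48 and 145 reads in Undiff and 78 and 143 reads in Day4 with Direct RNA, or 138 and 160 against 275 and 194 CPM. With cDNA it had 21 and 83 reads in Undiff and 41 and 177 in Day4, or 22.1 and 39.7 against 31.1 and 85.2 CPM. The states did not overlap in Direct RNA but overlapped in cDNA. It was not called, with log2 fold changes of 0.51 (95% interval -0.25 to 1.28, DESeq2 adjusted p = 0.555) and 0.53 (-0.62 to 1.67, adjusted p = 0.773).

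The scaffold pair BAF155 (Smarcc1) and BAF170 (Smarcc2) binds other core subunits together. Smarcc2 had 14 and 14 reads in Undiff and 32 and 56 in Day4 with Direct RNA, or 40.2 and 15.4 against 113 and 75.9 CPM. With cDNA it had 7 and 10 reads in Undiff and 22 and 91 in Day4, or 7.38 and 4.79 against 16.7 and 43.8 CPM. Both Day4 libraries lay above both Undiff libraries on each platform. DESeq2 did not call it, with log2 fold changes of 1.65 (SE 0.63, adjusted p = 0.0709) and 1.86 (SE 0.77, adjusted p = 0.104), while edgeR called it higher on both (adjusted p = 0.000504 and 0.00229). With at least 10 reads asked of every library, DESeq2 called it in Direct RNA (1.61, adjusted p = 0.012), and the cDNA counts did not pass that filter. Leaving out a library gave 1.03 (without Undiff replicate 2) to 2.16 (without Undiff replicate 1) in Direct RNA, and 1.07 (without Day4 replicate 2) to 2.17 (without Day4 replicate 1) in cDNA. Smarcc1 had 36 and 148 against 45 and 76 reads in Direct RNA and 29 and 90 against 56 and 160 reads in cDNA. Its CPM overlapped between the states on both platforms, and its log2 fold changes were -0.18 (95% interval -1.08 to 0.72) and 0.34 (-0.69 to 1.37).

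The BAF60 subunits are accessory proteins that bind transcription factors, and BAF60c (Smarcd3) is known from heart and muscle development. Smarcd3 had 2 and 12 reads in Undiff and 15 and 45 in Day4 with Direct RNA, or 5.74 and 13.2 against 52.9 and 61.0 CPM. With cDNA it had 1 and 2 reads in Undiff and 10 and 19 in Day4, a pooled ratio of 8.65 (95% exact counting interval 2.68 to 44.4). Every Day4 library was above the Undiff libraries of its platform. The Direct RNA change was 2.18 on the log2 scale (SE 0.79), just inside the threshold at a DESeq2 adjusted p of 0.0498, and the cDNA change was 2.25 (SE 1.18, adjusted p = 0.26). The edgeR test called it higher on both (adjusted p = 0.00022 and 0.0146). The Direct RNA call of DESeq2 was lost with TMM factors (2.17, adjusted p = 0.051), without shrinkage (2.37, adjusted p = 0.054) and with a replicate block (2.09, adjusted p = 0.29). It was also lost in all 5 draws thinned to the smallest of all 8 libraries (median 2.00) and in each of the 4 fits that left out a Direct RNA library. Those 4 gave log2 fold changes of 1.67 without Undiff replicate 1, 2.62 without Undiff replicate 2, 2.13 without Day4 replicate 1 and 1.85 without Day4 replicate 2. The gene lies at chr5:24590818-24624411 on the minus strand, and 48.2% of its exonic bases overlap exons of Chpf2 and Mir671 on the opposite strand. The methods name Direct RNA as the kit whose gene counts used the strand, and do not spell out the setting for cDNA. Reads ambiguous between genes were 1.84% to 1.99% in Direct RNA and 6.08% to 6.7% in cDNA of all reads on genes, ambiguous between genes or on no gene, and their part in the Smarcd3 values was not tested.

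Smarcd1 (BAF60a) had 51 and 140 reads in Undiff and 22 and 57 in Day4 with Direct RNA, or 146 and 154 against 77.6 and 77.3 CPM. The Day4 libraries were the lower ones there and overlapped with Undiff in cDNA, at 25 and 93 against 53 and 63 reads. DESeq2 gave -1.04 (SE 0.45, adjusted p = 0.133) and -0.31 (SE 0.57, adjusted p = 0.921), while edgeR called it lower in Direct RNA (adjusted p = 0.0194). Exons of other genes on the opposite strand cover 12.7% of its exonic bases. Smarcb1 (SNF5), a core subunit that contacts the nucleosome and a known tumour suppressor, had 53 and 194 against 79 and 172 reads in Direct RNA and 129 and 452 against 451 and 610 in cDNA. Its Day4 CPM was above Undiff on both platforms, at 152 and 214 against 279 and 233 and at 136 and 216 against 342 and 294. It was not called, with log2 fold changes of 0.34 (95% interval -0.40 to 1.08) and 0.54 (-0.27 to 1.34). Without Undiff replicate 1 the Direct RNA value was 0.01. For Smarcb1 the study reported differential exon usage between the states with both kits, followed up by RT-PCR, which a gene count does not measure.

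The ARID subunits are large DNA-binding proteins that define the canonical BAF form, and a complex holds either Arid1a or Arid1b. Arid1b had 1 and 23 reads in Undiff and 33 and 27 in Day4 with Direct RNA, or 2.87 and 25.3 against 116 and 36.6 CPM. With cDNA it had 57 and 78 reads in Undiff and 169 and 222 in Day4, or 60.1 and 37.3 against 128 and 107 CPM. The Day4 libraries were higher on both platforms, and the Direct RNA replicates differed widely within each state. DESeq2 did not call it, at 1.95 (SE 0.80, adjusted p = 0.102) and 0.93 (SE 0.49, adjusted p = 0.257), and edgeR called it higher in Direct RNA alone (adjusted p = 0.00122; 0.0787 in cDNA). The Direct RNA value moved with single libraries, at 0.96 without Day4 replicate 1, 1.18 without Undiff replicate 1, 2.42 without Day4 replicate 2 and 3.54 without Undiff replicate 2. Arid1a had 40 and 104 against 34 and 81 reads in Direct RNA, or 115 and 115 against 120 and 110 CPM. In cDNA it had 107 and 375 against 146 and 273 reads, or 113 and 180 against 111 and 131 CPM. Its states overlapped on both platforms, and its log2 fold changes were -0.11 (95% interval -0.98 to 0.77) and -0.58 (-1.41 to 0.25).

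Actl6a encodes BAF53a, the actin-related subunit of dividing progenitors, which neurons replace with BAF53b (Actl6b). Actl6a had 96 and 366 reads in Undiff and 35 and 122 in Day4 with Direct RNA, or 276 and 403 against 123 and 165 CPM. With cDNA it had 338 and 1046 reads in Undiff and 255 and 564 in Day4, or 356 and 501 against 193 and 272 CPM. Both Day4 libraries lay below both Undiff libraries on each platform. The mean fell from 339 ± 90.4 to 144 ± 29.7 CPM (SD, n = 2) with Direct RNA and, with cDNA, from 429 ± 102 to 232 ± 55.2 CPM. It was called lower on both, at -1.31 (SE 0.38, DESeq2 adjusted p = 0.00917) and -1.19 (SE 0.38, adjusted p = 0.0213), and by edgeR too. With libraries thinned to the smallest of all 8, the call stood in 2 of 5 draws in Direct RNA and in 0 of 5 in cDNA. Each of the 4 fits without one Direct RNA library lost the call, with log2 fold changes between -1.65 (without Undiff replicate 1) and -0.97 (without Undiff replicate 2). The same held in cDNA, with log2 fold changes between -1.42 and -0.99. The gene lies at chr3:32706298-32726973 on the plus strand, and exons of Mrpl47 on the opposite strand cover 11.6% of its exonic bases. Actl6b had 0 reads in all 8 libraries.

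**Figure D2:**
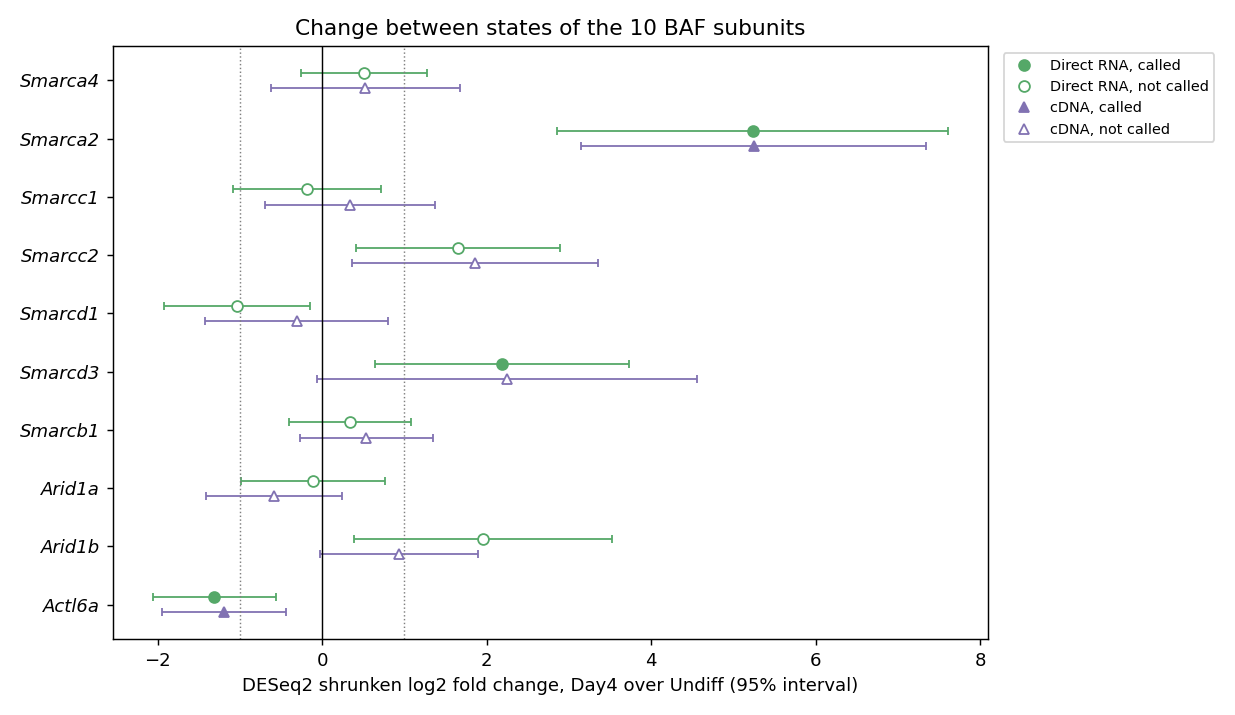
Shrunken log2 fold change of Day4 over Undiff for the 10 subunits in Direct RNA (green circles) and cDNA (purple triangles), with 95% intervals. Filled symbols are called and open ones are not, and dotted lines mark a log2 fold change of 1 in size. Smarca2 stands at 5.23 and 5.25, and Actl6a at -1.31 and -1.19.

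Counted over libraries in CPM rather than fits, 5 of the 10 subunits (Smarca2, Smarcc2, Smarcd3, Smarcb1 and Arid1b) had both Day4 libraries above both Undiff libraries on each platform. This held for 29.9% of all genes with the stated mean on both platforms. Only Actl6a lay below on both, against 17.9% of all genes. CPM scales by the reads on genes of a library alone. In cDNA the Smarcb1 mean went from 176 to 318 CPM, but from 293 to 430 in normalised reads.

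The balance within paralog pairs was also taken inside each library, as the share of the pair's reads that fell on 1 of its members. Such a share does not depend on the total of a library, while a kit's efficiency for each gene stays in it. The share of Smarca2 in the reads of Smarca2 and Smarca4 was 0% and 0% in Undiff and 14.3% and 18.8% in Day4 with Direct RNA. For these 0 of 48 and 0 of 145 reads, 3 reads would be 6.25% and 2.07%, and the upper 95% Wilson limits are 7.41% and 2.58%. With cDNA it was 4.55% and 0% in Undiff and 56.8% (95% Wilson interval 46.8 to 66.3) and 27.2% (22 to 33.1) in Day4. The Day4 intervals do not overlap, but they treat each PCR copy as an independent molecule and so are too narrow. The Smarca2 share was higher in Day4 by 16.5 percentage points in Direct RNA, by 39.7 in cDNA and by 28.1 on their mean.

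The share of Smarcc2 in the reads of both scaffold genes was 28% and 8.64% in Undiff and 41.6% and 42.4% in Day4 with Direct RNA. With cDNA it was 19.4% and 10% in Undiff and 28.2% and 36.3% in Day4. The share of Arid1b in the reads of both ARID1 genes was 2.44% and 18.1% against 49.3% and 25% in Direct RNA and 34.8% and 17.2% against 53.7% and 44.8% in cDNA. In both pairs each Day4 library was above the Undiff libraries of its platform. The share of Smarcd3 in the reads of Smarcd3 and Smarcd1 was 3.77% and 7.89% against 40.5% and 44.1% in Direct RNA, and 3.85% and 2.11% against 15.9% and 23.2% in cDNA. That pair leaves out Smarcd2 (BAF60b), the third BAF60 gene, which DESeq2 did not call on either platform (log2 fold changes 0.54 and 0.36, adjusted p = 0.7 and 0.921). Its level was 57.4 and 57.3 CPM in Undiff and 91.7 and 90.8 in Day4 with Direct RNA, and 11.6 and 6.70 against 12.9 and 16.8 CPM with cDNA. Of the reads of all 3 BAF60 genes, a share added after seeing the data, Smarcd3 took 2.74% and 5.88% against 23.8% and 26.6% in Direct RNA and 2.7% and 1.83% against 12.5% and 16.2% in cDNA, a mean difference of 16.5 points. Each Day4 library was again above the Undiff libraries of its platform. The mean differences within the pairs were 20.6 points for Smarcc2, 25.1 points for Arid1b and 26.5 points for Smarcd3. A two-sided exact permutation of state within platform gave p = 0.0556 for each of the 4 pairs, also after adjustment over the 4, which is the smallest p that the 36 arrangements allow. That test counts each culture once per platform. With the 4 cultures permuted whole, a test added after seeing the data, the exact p was 0.333 for each pair, the smallest that 6 arrangements allow, so the design cannot reach 0.05 here. Such a share moves with either gene of the pair and does not measure how the proteins are assembled.

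**Figure D3:**
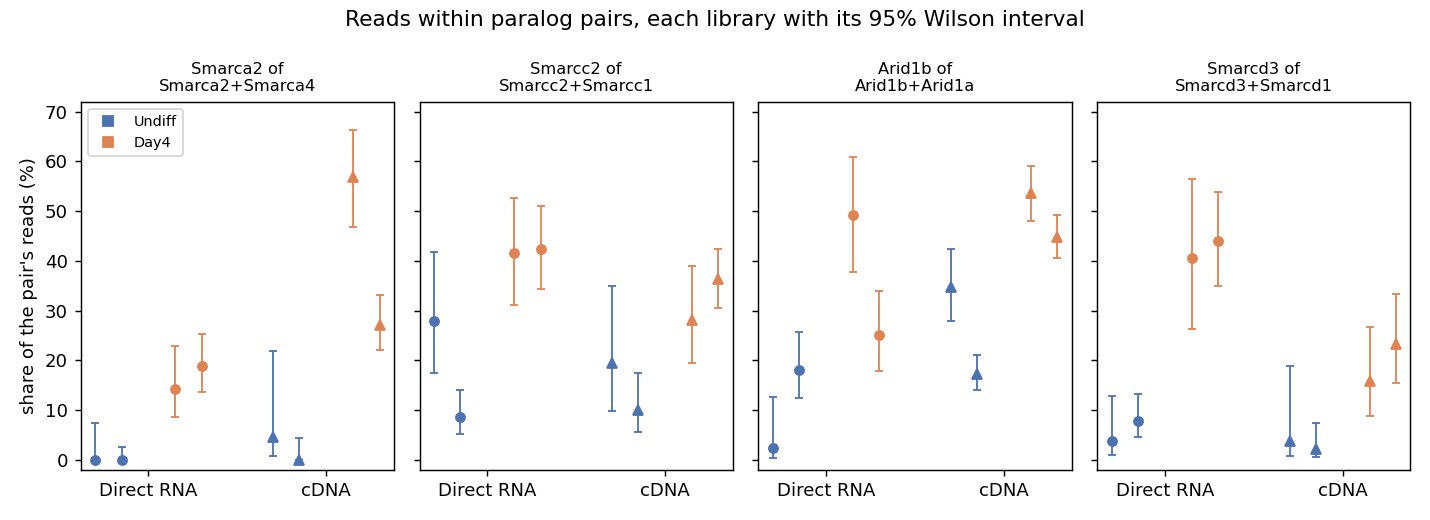
Share of a pair's reads, in percent, that fell on Smarca2, Smarcc2, Arid1b and Smarcd3 in each library, with 95% Wilson intervals for counting error. Undiff is in blue and Day4 in orange, with 2 libraries for each platform and state. In all 4 pairs both Day4 libraries lie above both Undiff libraries of the same platform.

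The same subunits were compared between the platforms, in 1 fit of the 8 libraries that also held the state. Arid1b (log2 cDNA over Direct RNA 1.78, DESeq2 adjusted p = 0.000818) and Actl6a (1.21, adjusted p = 1.44e-07) were called higher in cDNA, 2 of 10 where 24.7% of all genes were. Smarca4 (-1.38, adjusted p = 3.22e-05), Smarcc2 (-1.08, adjusted p = 0.0321) and Smarcd3 (-2.15, adjusted p = 9.25e-05) were called lower, 3 of 10 against 26.6%. With the adjusted p-value alone 9 of 10 passed, against 57.7% of all genes. Smarca2 was the exception, at 0.36 (95% interval -0.70 to 1.42). The Smarcc2 call was lost with edgeR (-0.97) and with TMM factors (DESeq2 adjusted p = 0.053). It was also lost in 5 of the fits that left out a library, with adjusted p-values of 0.13 without Direct RNA Undiff replicate 1, 0.13 without Direct RNA Day4 replicate 1, 0.054 without Direct RNA Day4 replicate 2, 0.14 without cDNA Undiff replicate 2 and 0.15 without cDNA Day4 replicate 1. Across the 10 genes, the platform difference and the length of the longest transcript had a Spearman correlation of 0.39, given as a description of 10 genes from the same libraries.

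The interaction of state and platform, which asks whether both kits gave the same change, was fitted in DESeq2 without shrinkage and called on its adjusted p-value and the mean, with no fold threshold. None of the 10 subunits was called, where 0.0192% of all genes were. The edgeR test called none of the 10 either, against 0.134% of all genes. None had an unadjusted p under 0.05 by DESeq2 or edgeR, a count given without its share over all genes. The DESeq2 estimates ranged from -1.13 to 0.73. With 2 cultures a state, each read by both kits, this does not show that the platforms gave equal changes.

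Of 21 other subunits of the BAF, PBAF and ncBAF forms, 15 reached the stated mean in Direct RNA and 14 in cDNA. Smarce1 (BAF57), Bcl7a and Bcl11a were called higher on both platforms. In Direct RNA Bcl7a and Bcl11a reached that mean through the Day4 libraries alone, with Undiff means of 2.63 and 1.73 normalised reads. Smarce1, a core subunit with a DNA-binding HMG box, was at 60.3 and 40.8 CPM in Undiff and 145 and 197 CPM in Day4 with Direct RNA, and at 70.6 and 83.3 against 218 and 357 CPM with cDNA. Its log2 fold changes were 1.66 (DESeq2 adjusted p = 0.00893) and 1.53 (adjusted p = 0.00403). Bcl11a, a zinc finger protein also known as a repressor of fetal globin, was at 5.74 and 1.10 CPM in Undiff against 52.9 and 61.0 CPM in Day4 with Direct RNA, and at 5.27 and 3.35 against 48.6 and 74.6 CPM with cDNA. These were changes of 3.74 (adjusted p = 0.00145) and 3.38 (adjusted p = 2.37e-05). Bcl7a went from 0 and 9.92 to 77.6 and 44.7 CPM and from 15.8 and 13.4 to 53.9 and 78.0 CPM, with changes of 2.87 (adjusted p = 0.0129) and 1.79 (adjusted p = 0.0176). The Day4 libraries lay above the Undiff libraries for all 3 genes on both platforms.

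Gltscr1l (Bicral), of the ncBAF form, was called lower in Direct RNA, at -2.21 (DESeq2 adjusted p = 0.0247), with 54.5 and 76.0 CPM in Undiff and 14.1 and 13.6 CPM in Day4. In cDNA it was at -1.52 (adjusted p = 0.343), where edgeR called it lower (adjusted p = 0.0223). Actb, whose actin is also a BAF subunit but serves mainly in the cytoskeleton, was called lower in cDNA at -1.76 (adjusted p = 0.0132). It had 12500 and 4040 CPM there in Undiff and 3950 and 1940 CPM in Day4, and its Undiff replicates lay far apart. In Direct RNA, where its states overlapped, DESeq2 gave -1.43 (adjusted p = 0.486) and edgeR called it lower. In all, DESeq2 called 3 higher and 1 lower of the 15 in Direct RNA, where the shares over all genes were 9.54% and 7.67%, and 3 higher and 1 lower of the 14 in cDNA, where they were 8.69% and 9.24%. The edgeR test called 3 higher and 2 lower in Direct RNA, against 18.7% and 15.1% of all genes, and 4 higher and 3 lower in cDNA, against 17.1% and 15.5%.

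**Figure D4:**
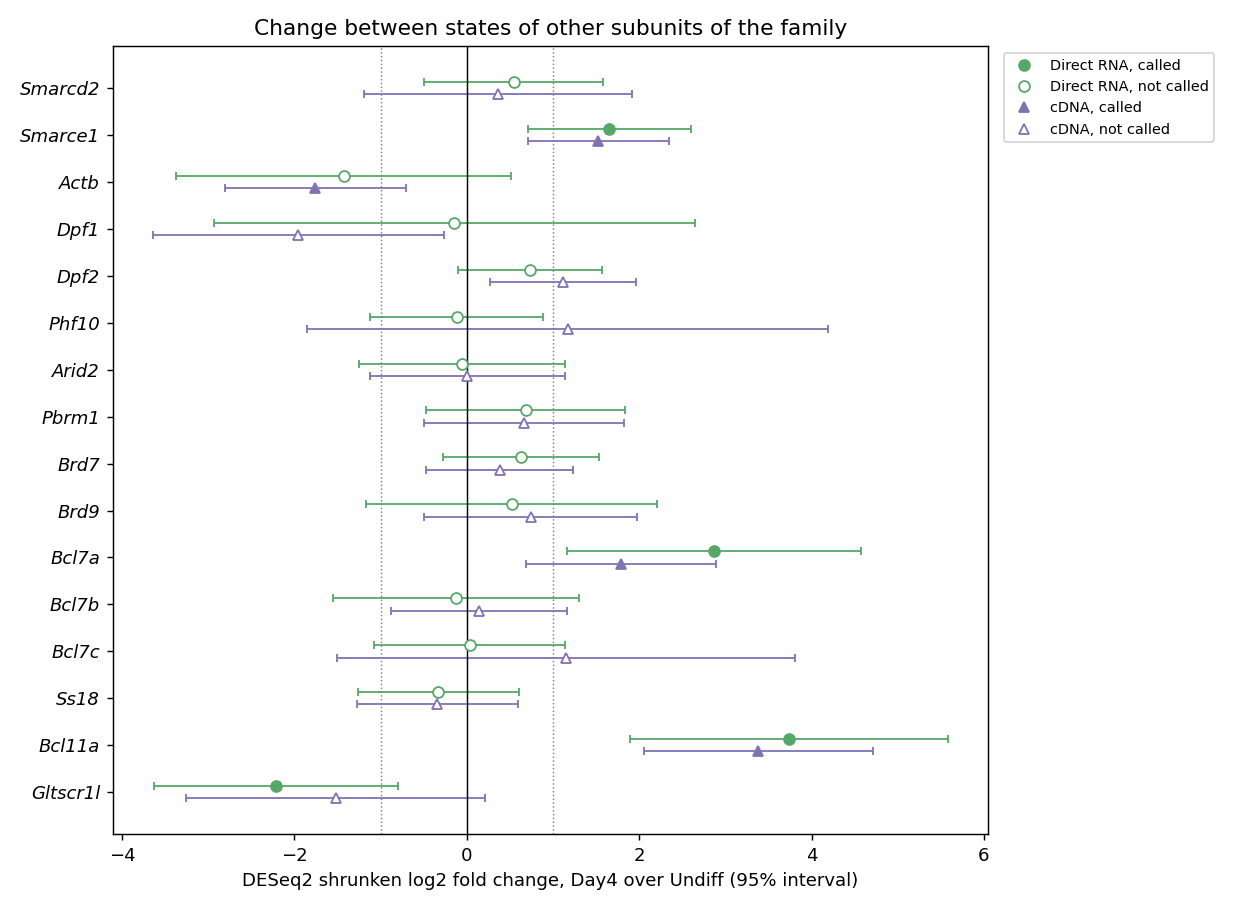
Shrunken log2 fold change of Day4 over Undiff, with 95% intervals, for those other subunits that reached a mean of 5 on at least one platform (Direct RNA green circles, cDNA purple triangles, filled where called). Smarce1, Bcl7a and Bcl11a lie to the right of the dotted line at 1 on both platforms.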

How the data were processed

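Direct RNA and cDNA libraries of R1 ESCs were compared from whole-number read counts per gene, deposited as raw htseq-count output. The authors had aligned the reads to mm10 with minimap2 and left out secondary alignments. Direct RNA was counted by strand. The gene-level setting for cDNA is not given in the sources used here. Adapter trimming differed between the kits, and so did base-calling, for which either of 2 programs (albacore or Guppy) served within Direct RNA itself. The 5 counters of unassigned reads entered no test. Libraries were grouped by their labels. Fits over both platforms treat the 8 libraries as independent, although they come from 4 cultures. The members and gene lists were chosen with earlier results of these data known.

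States were tested within each platform with DESeq2 1.42.0 in R 4.3.3 (shrunken fold changes, Cook's cutoff and independent filtering off), on all genes with a read, with Benjamini-Hochberg adjustment over them. The quasi-likelihood test of edgeR 4.0.16 was the alternative. The genes named are the 10 subunits and those of the other lists called between states on either platform. Dcx, Sox1, Elavl3, Actl6b, Nes, Tagln, Thy1, Amn, Sox17, Pecam1 and Smarcd2 fall outside that rule and were named after their values were seen. The fits were also run on simulated counts. Changes were placed there only in genes with higher means than Smarca2 and Smarcd3 had, so those runs do not cover the calls of these genes. Intervals (Wilson or exact, 95%) and floors of 3 reads cover counting error only, since PCR copies are not independent molecules. Gene positions and exon overlaps came from GENCODE vM21 on GRCm38, and promoter windows from RefSeq on GRCm38.p6. Other normalization, shrinkage, filters, depth, replicate blocks and leaving out each library were tried as alternatives.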

Additional observations from a re-analysis of the deposited data

How the results depend on the processing

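Counts of called subunits depended on the tool and on single libraries. Between states in Direct RNA, where 3 were called, edgeR called 6 (33.7% of all genes averaging 5 or more normalised reads in that fit, as for each share that follows), libraries thinned to the smallest gave a median of 1 over 5 draws (11.8% to 12.2%), and leaving out a library gave 0 (without Undiff replicate 2 and without Day4 replicate 2) to 1 (4.25% to 8.04%). In cDNA, where 2 were called, edgeR called 4 (32.6%). Thinning left 0 of the 7 to 9 subunits that still reached the mean (8.49% to 9.7%), and a minimum of 10 reads in every library left 0 of 7 (18.5%). On leaving out a cDNA library, the log2 fold change ranged from 3.79 to 5.79 for Smarca2 and from -1.42 to -0.99 for Actl6a. Between platforms, where 5 were called, the minimum of 10 reads gave 3 of the 6 subunits that passed it (46.9% of all genes). These were Smarca4, Smarcc1 and Smarcd1, of which only Smarca4 was among the 5. Dropping the fold threshold gave 9, and leaving out a library gave 4 to 7 (45.5% to 48.4% of all genes). The read minimum takes Smarca2 out of the test, while Actl6a stayed in it and reached -0.97 (adjusted p = 0.046) in cDNA. Otherwise the cause was not tested. A lone sample in these fits is assumed to vary like the other group.

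Of 370 single-gene values recomputed, 314 kept direction and call, 31 lost a call, 17 gained one and 8 changed sign, all in genes not called. Smarcc1 in Direct RNA ranged from -0.55 to 0.21 (log2) on leaving out a library, with 0.11 without Day4 replicate 2, and was 0.034 after thinning. Arid1a in Direct RNA was 0.02 with the read minimum and 0.011 after thinning. In cDNA Smarca4 ranged from -0.16 to 1.02, and Smarcd1 from -0.62 to 0.015, on leaving out a library.

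The platforms and states share replicate numbers. The RNA of the same cultures went to both kits, but no source says that a number marks the same culture on both, or a shared day in both states. Differences between replicates correlated, over 1395 genes, at 0.214 between the states in Direct RNA and 0.5 in cDNA, and across platforms at 0.124 in Undiff and -0.416 in Day4. With the replicate block 2 subunits were called between states on each platform (8.74% of all genes in Direct RNA and 13.4% in cDNA), 5 between platforms (48.4%) and 0 for the interaction (0.0192%). An exact sign-flip of the 4 paired differences in each paralog share gave p = 0.125, the smallest it allows, counting each culture once per platform. With the Day4 numbers crossed, an alternative chosen after seeing the data, 5 were called between platforms (48.7%). An exact permutation of the 4 whole cultures gave p = 0.333 for each paralog share under both pairings of the numbers.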

Other observations

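Of 17 ATPases of other remodeller families, 16 reached a mean of 5 reads on each platform, and DESeq2 called 1 higher and 1 lower between states on each, where 9.54% and 7.67% of all genes were in Direct RNA and 8.69% and 9.24% in cDNA. The edgeR test called 2 higher and 3 lower in Direct RNA, against 18.7% and 15.1% of all genes, and 2 higher and 2 lower in cDNA, against 17.1% and 15.5%. Chd3, an ATPase of the NuRD complex, was at 11.5 and 5.51 CPM in Undiff and 169 and 103 CPM in Day4 with Direct RNA, and at 2.11 and 0.958 against 30.3 and 21.2 CPM with cDNA. Its DESeq2 log2 fold changes were 3.78 (adjusted p = 1.47e-06) and 3.48 (adjusted p = 0.00306). It reached the mean through the Day4 libraries alone, with Undiff means of 4.35 and 2.63 normalised reads. Hells, an ATPase needed for DNA methylation at repeats, fell from 402 and 300 to 134 and 78.6 CPM in Direct RNA and from 92.8 and 128 to 43.2 and 54.4 CPM in cDNA. Its changes were -1.83 (adjusted p = 0.000105) and -1.47 (adjusted p = 0.0137). The states of both genes did not overlap on either platform.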
